A study of Mus musculus with 6 samples.

Results

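The genes described here are 8 target genes of the peroxisome proliferator-activated receptors (PPARs) and enzymes of fatty acid oxidation, namely Pdk4, Angptl4, Acot1, Cpt1a, Cpt2, Plin2, Acadm and Hadha. They were matched to probes by gene name or transcript accession on 4 expression arrays, and all 8 were among the 14701 named genes tested. Each array held colonic mucosa of 1 Tlr2 knockout sample and 1 wild-type sample, both on C57BL/6 at 90 postnatal days, with no treatment named in the labels. Tlr2 encodes a cell-surface receptor for bacterial lipoproteins. The mucosa had been pushed off the colon with a microscope slide and frozen, so it held every cell type that comes off that way. The arrays are called pairs 1, 2, 4 and 5 after the knockout sample. The knockout RNA carried the dye Cy3 in pairs 1 and 2 and Cy5 in pairs 4 and 5. The labels name the knockout without the allele or the way it was bred, and they do not say that each sample code was a separate animal. Limma p-values therefore measure the spread between these samples. Unless stated otherwise the fit has a dye term, so its p-values and intervals take in only the spread within each dye orientation.

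PPARs are nuclear receptors for fatty acids and their derivatives, and they bind DNA as a pair with a retinoid X receptor (RXR). Among their best known targets are Pdk4, whose kinase shuts off pyruvate dehydrogenase and so spares glucose, and Angptl4, a secreted inhibitor of lipoprotein lipase. Others are Plin2, which coats lipid droplets, and the enzymes that carry fatty acids into mitochondria and break them down. Colonocytes take most of their energy from butyrate, a short fatty acid made by gut bacteria, which they oxidise in their mitochondria.

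The classical PPAR and RXR element is the direct repeat DR1, in which the unit AGGTCA stands in tandem with 1 free base between the copies, and it was searched on both strands with at most 2 mismatches outside that base. RefSeq promoters of assembly GRCm38.p6, from 250 bases before to 50 bases after the start, were matched for 7 of the 8 genes. Angptl4 had no entry. Of these 7 promoters, 1 held a match, that of Plin2 (14.3%), against 3.86% of all 32851 promoters. Over a wider list of 100 pathway genes described below, 13 of 100 promoters of 81 genes held one. The simple repeat unit AGGTCA, which is contained in the repeat, was in 3 of the 7 promoters (42.9%), in 27.0% of the pathway promoters and in 16.3% of all promoters. These letters are a description of the window and were not read as sites. The promoters below belong to Pdk4, the gene with the lowest mean ratio and no match, to Plin2, and to Fabp1, a fatty acid binding protein whose closest match had 1 mismatch. Capitals mark the matched letters, and each sequence runs 5′ to 3′ along its gene.
Pdk4, chr6:5496229-5496528, minus strand: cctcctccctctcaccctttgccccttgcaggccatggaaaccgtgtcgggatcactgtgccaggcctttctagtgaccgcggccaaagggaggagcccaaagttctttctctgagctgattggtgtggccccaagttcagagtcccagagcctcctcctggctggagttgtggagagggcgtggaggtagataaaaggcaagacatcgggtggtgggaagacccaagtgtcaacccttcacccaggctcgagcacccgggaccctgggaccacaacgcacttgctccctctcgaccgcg
Plin2, chr4:86670010-86670309, minus strand: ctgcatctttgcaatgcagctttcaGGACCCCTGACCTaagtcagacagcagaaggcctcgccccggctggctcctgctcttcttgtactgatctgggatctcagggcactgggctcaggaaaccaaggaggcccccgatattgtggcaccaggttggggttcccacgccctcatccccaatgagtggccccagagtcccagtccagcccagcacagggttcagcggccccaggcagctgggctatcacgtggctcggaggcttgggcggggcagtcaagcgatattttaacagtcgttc
Fabp1, chr6:71199629-71199928, plus strand: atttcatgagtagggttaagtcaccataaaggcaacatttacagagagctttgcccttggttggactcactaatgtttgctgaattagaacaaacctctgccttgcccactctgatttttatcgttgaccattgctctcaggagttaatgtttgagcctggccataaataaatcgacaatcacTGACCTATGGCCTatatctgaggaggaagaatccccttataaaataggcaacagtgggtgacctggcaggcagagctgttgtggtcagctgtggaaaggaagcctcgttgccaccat
In Plin2 the match lay 213 bases before the start and in Fabp1 55 bases before it, both in the opposite orientation to the gene. The closest stretch in the Pdk4 window had 4 mismatches.

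Tlr2 was measured first as a check of the labels. Its normalised signal was 133, 93.1, 117 and 208 in knockout samples of pairs 1, 2, 4 and 5, against 2844, 3692, 5276 and 3823 in wild-type samples. The knockout signal was 29.0-fold lower on average and lower in 4 of 4 pairs, with an adjusted limma p of 0.31 (0.0273 without the dye term). The size of this fold depends on the offset of 50 added to each signal. With the scanner's processed signals the mean Tlr2 log2 ratio was -6.50, with an adjusted limma p of 0.0058, and the authors' deposited table gives a mean ratio of 0.0116. Pair 1 stood apart from the rest. Over 14701 genes its log2 ratios correlated with those of pairs 2, 4 and 5 at r = -0.21, -0.42 and -0.10, while r among the other pairs lay between 0.42 and 0.57. The dye of each genotype is stated in the labels and Tlr2 was low in the knockout of pair 1 too, so its direction was kept, and results that rest on it are given with and without it. Between 67.7% and 71.9% of spots were well above background in the knockout channel and between 63.3% and 76.5% in the wild-type channel. All 13 measured markers of absorptive colonocytes and all 7 measured goblet cell markers were well above background in both genotypes on all 4 arrays. All 4 arrays lay on 1 slide.

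With the adjusted p-value of limma (Benjamini-Hochberg over 14701 genes, threshold 0.05), 0 genes of the whole table were called, or 0%, so no gene below passed that test. At an unadjusted limma p under 0.05, 1193 genes (8.12%) were reached, 626 of them lower in the knockout (4.26%) and 567 higher (3.86%). The submitters' own rule asks for more than a 1.6-fold change on at least 2 arrays with no array pointing the other way. By this rule 105 genes were lower (0.714%) and 112 higher (0.762%). With median centring in place of loess the split was 293 lower and 45 higher. Of the 8 genes, 3 were lower by that rule (Pdk4, Angptl4 and Plin2) and 0 were higher. Another 2, Acot1 and Cpt2, had an unadjusted p under 0.05, which made 5 of 8, and Cpt1a, Acadm and Hadha had mean log2 ratios between -0.05 and -0.03. The 8 genes were chosen with earlier results of these arrays known, so these counts describe them and support nothing further. The median of their mean log2 ratios was -0.59, beside -0.01 over all named genes.

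**Figure D1:**
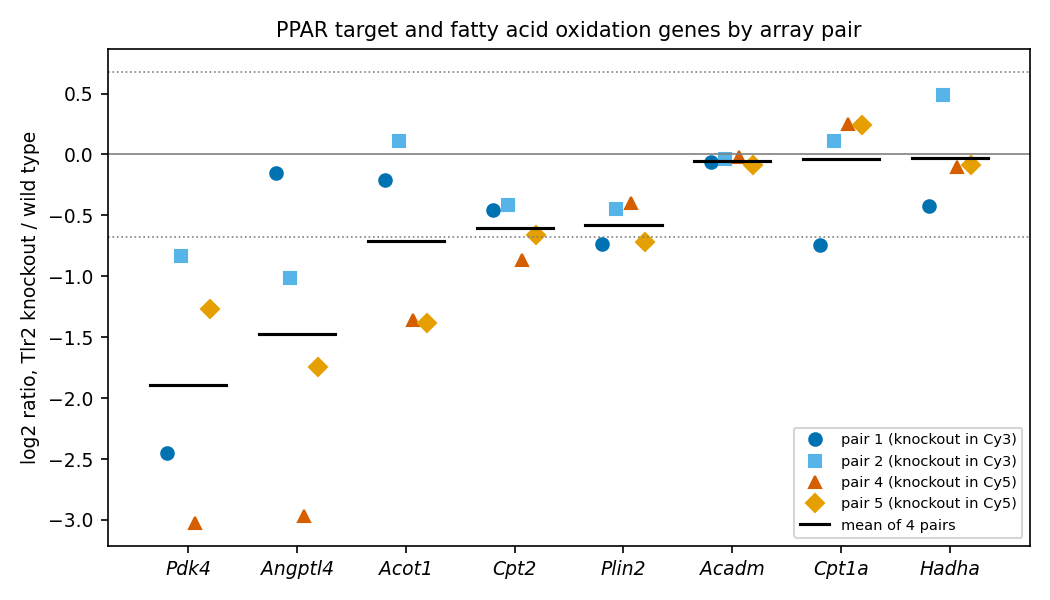
Each point is the log2 ratio of Tlr2 knockout over wild type on 1 array, for 8 genes along the x axis; the black bar is the mean of 4 pairs and dotted lines mark a 1.6-fold change. Pdk4 lies below the lower dotted line in every pair, Acot1 only in pairs 4 and 5, and Acadm stays between -0.09 and -0.02.

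Pdk4 had the largest difference of the 8. Its normalised signal was 466, 717, 283 and 938 in knockout samples of pairs 1, 2, 4 and 5, against 2552, 1281, 2306 and 2256 in wild-type samples. Every knockout signal lay below every wild-type signal. The log2 ratios were -2.45, -0.84, -3.03 and -1.27, with a mean of -1.90 ± 1.02 (SD, n = 4 arrays), or 3.72-fold lower. The 95% confidence interval of the mean ran from -3.07 to -0.72, with an unadjusted limma p of 0.0108 and an adjusted limma p of 0.59. Pdk4 was at least 1.6-fold lower on all 4 arrays, which held for 6 of 14701 genes (0.0408%). The authors' deposited table of decreased transcripts lists Pdk4 with a mean knockout over wild-type ratio of 0.317. In bulk mucosa, fewer cells of a type and less RNA per cell cannot be told apart, for this gene and for those that follow.

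Pdk4 has 3 sister kinases that act on the same enzyme complex, and their values differed in direction. Pdk1, a kinase known to be induced under low oxygen, had signals of 1423, 1418, 1900 and 1548 in knockout samples, against 1221, 1028, 1009 and 1267 in wild-type samples. Every knockout signal of Pdk1 lay above every wild-type signal, with a mean log2 ratio of 0.47 ± 0.31 (SD, n = 4 arrays). Pdk3 had signals of 765, 838, 733 and 865 in knockout samples, against 1057, 961, 957 and 1194 in wild-type samples. Its groups did not overlap either, in the direction of Pdk4, with a mean of -0.38 ± 0.13 (SD, n = 4 arrays). Among all genes with a value on every array, the knockout lay wholly below the wild type for 355 of 14690 (2.42%) and wholly above for 327 (2.23%). Pdk2 had log2 ratios of -0.87, 0.61, 0.12 and 0.27, so pair 1 opposed the other pairs. Pdha1, the catalytic subunit that these kinases phosphorylate, had a mean log2 ratio of -0.23 ± 0.21 (SD, n = 4 arrays) and was lower on all 4 arrays by its brighter probe. Its second probe averaged 0.15 ± 0.40 (SD, n = 4 arrays), and the mean of both was -0.039. Of 12 tested genes of the pyruvate dehydrogenase complex, its kinases and phosphatases, 4 were lower and 1 was higher on all 4 arrays, beside 8.41% and 7.18% of all named genes. The adjusted limma p was 0.59 for Pdk1 and Pdk3 and 0.66 for Pdha1.

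Angptl4 had signals of 2217, 1676, 676 and 1369 in knockout samples of pairs 1, 2, 4 and 5, against 2462, 3391, 5298 and 4595 in wild-type samples. The groups did not overlap, but the highest knockout signal and the lowest wild-type signal, both of pair 1, were close. The log2 ratios were -0.15, -1.02, -2.97 and -1.75, with a mean of -1.47 ± 1.19 (SD, n = 4 arrays), or 2.77-fold lower. The 95% confidence interval ran from -2.23 to -0.71, the unadjusted limma p was 0.0056 and the adjusted limma p was 0.59. The mean was -0.58 in the pairs with the knockout in Cy3 and -2.36 in the pairs with the knockout in Cy5. The dye term of the fit takes up that gap, so the interval above does not include it. Without the dye term the unadjusted limma p was 0.0228. Without pair 1 the mean was -1.91. The authors' deposited table of decreased transcripts gives Angptl4 a mean ratio of 0.428.

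Plin2 had signals of 13764, 16328, 24431 and 13891 in knockout samples of pairs 1, 2, 4 and 5, against 22935, 22306, 32206 and 22837 in wild-type samples. The knockout was lower within each pair, yet the groups overlapped, since the knockout of pair 4 was above 3 of the 4 wild-type samples. Its ratios varied little, at -0.74, -0.45, -0.40 and -0.72, with a mean of -0.58 ± 0.18 (SD, n = 4 arrays), or 1.49-fold lower. The 95% confidence interval ran from -0.88 to -0.27, the unadjusted limma p was 0.0065 and the adjusted limma p was 0.59. Pairs 1 and 5 alone passed 1.6-fold, so Plin2 met the submitters' rule only while both were kept. With the scanner's processed signals and with median centring it did not meet the rule, at mean log2 ratios of -0.53 and -0.74.

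**Figure D2:**
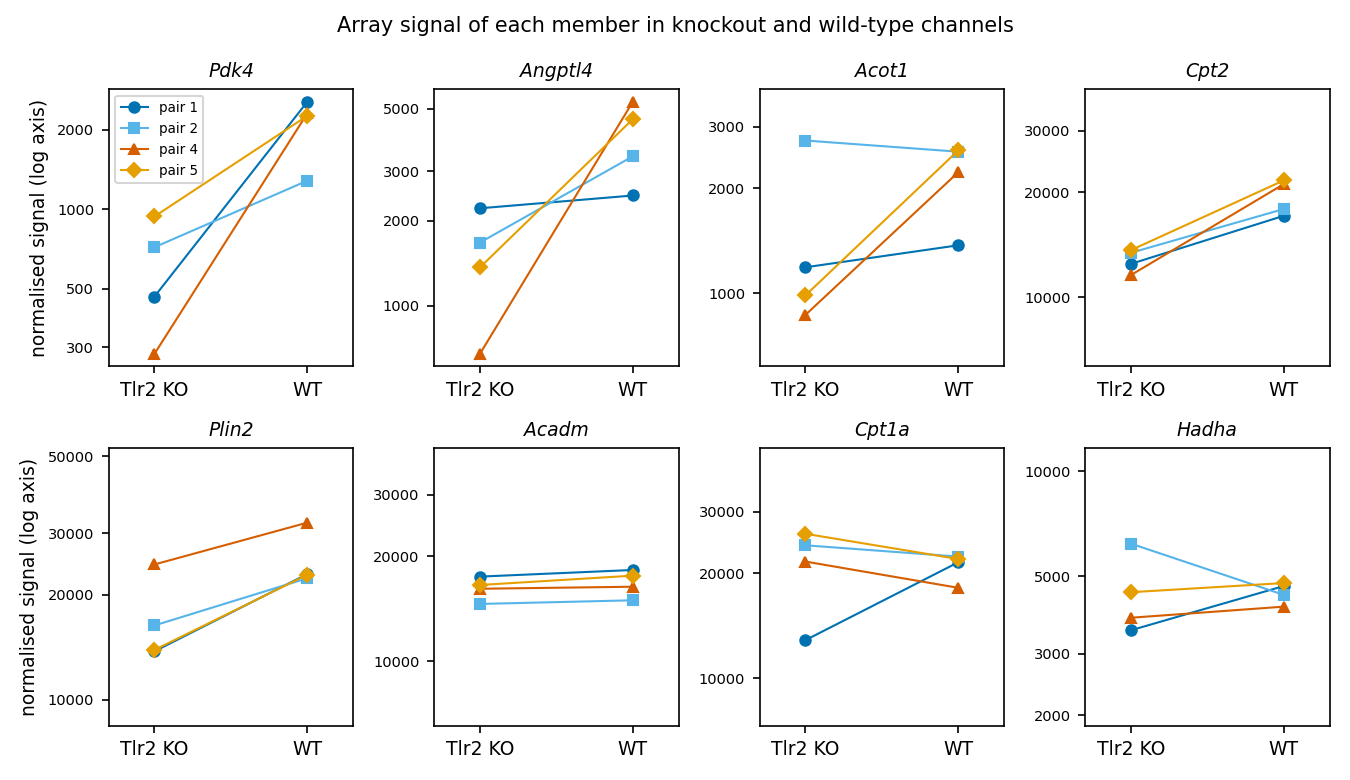
Each panel shows 1 gene's normalised signal (log axis) in the Tlr2 knockout channel on the left and the wild-type channel on the right, with a line joining the 2 samples of 1 array. All 4 lines rise to the wild type for Pdk4, Angptl4, Cpt2, Plin2 and Acadm, while the lines of Acot1, Cpt1a and Hadha cross or differ in direction.

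Acot1 encodes a cytosolic thioesterase that splits long-chain acyl-CoA into free fatty acid and CoA. Its signal was 1185, 2739, 866 and 985 in knockout samples of pairs 1, 2, 4 and 5, against 1371, 2544, 2223 and 2568 in wild-type samples. The groups overlapped, as pair 2 had the highest knockout signal and pair 1 the lowest wild-type signal. The log2 ratios were -0.21, 0.11, -1.36 and -1.38. The mean was -0.71 ± 0.77 (SD, n = 4 arrays), or 1.64-fold lower, with a 95% confidence interval from -0.99 to -0.44, an unadjusted limma p of 0.0019 and an adjusted limma p of 0.59. Without the dye term of the fit the unadjusted limma p was 0.0644. That term takes up the gap between the Cy3 pairs, with a mean of -0.05, and the Cy5 pairs, with a mean of -1.37. Dye orientation and the particular samples cannot be told apart for this gap.

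Acot1 belongs to a cluster of near-identical thioesterase genes, so a probe may take up signal from its relatives. Acot2, the mitochondrial member, had log2 ratios of -0.86, 0.21, -0.61 and -0.36, with a mean of -0.40 ± 0.46 (SD, n = 4 arrays). Acot4, a peroxisomal member, had 0.01, 0.56, -0.32 and -0.42, with a mean of -0.05 ± 0.44 (SD, n = 4 arrays). For Acot1, Acot2 and Acot4 alike, pair 2 was the highest of the 4 ratios. Acot3 was well above background on 0 arrays and was not tested.

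Cpt1a and Cpt2 are the outer and inner carnitine palmitoyltransferases, which hand long-chain fatty acids across the mitochondrial membranes. Cpt2 had signals of 12470, 13417, 11581 and 13654 in knockout samples of pairs 1, 2, 4 and 5, against 17135, 17920, 21128 and 21653 in wild-type samples. The groups did not overlap. The log2 ratios were -0.46, -0.42, -0.87 and -0.67, with a mean of -0.60 ± 0.21 (SD, n = 4 arrays), or 1.52-fold lower, a 95% confidence interval from -0.85 to -0.35, an unadjusted limma p of 0.0025 and an adjusted limma p of 0.59. Cpt2 passed 1.6-fold in pair 4 alone, so it missed the submitters' rule here, whereas the authors' deposited table of decreased transcripts lists it with a mean ratio of 0.617. With the scanner's processed signals, and with median centring, Cpt2 met the rule, at mean log2 ratios of -0.68 and -0.76.

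Cpt1a, the step that malonyl-CoA inhibits, did not follow Cpt2. Its brighter probe, printed in 10 spots, had signals of 12867, 24074, 21624 and 25980 in knockout samples, against 21530, 22344, 18179 and 21981 in wild-type samples. The log2 ratios were -0.74, 0.11, 0.25 and 0.24, so pair 1 was low and the other pairs were slightly high. The mean was -0.04 ± 0.48 (SD, n = 4 arrays), with a 95% confidence interval from -0.51 to 0.43 and an adjusted limma p of 0.97. The second probe had the same split, at -1.06, 0.82, 0.40 and 0.37, with a mean of 0.13 ± 0.82 (SD, n = 4 arrays). Without pair 1 the mean of the brighter probe was 0.20.

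Acadm, the medium-chain acyl-CoA dehydrogenase, was the steadiest of the 8. Its signal was 17483, 14595, 16136 and 16541 in knockout samples of pairs 1, 2, 4 and 5, against 18267, 14951, 16353 and 17596 in wild-type samples. The mean log2 ratio was -0.05 ± 0.03 (SD, n = 4 arrays). The 95% confidence interval, from -0.28 to 0.18, holds no 1.6-fold change, and the adjusted limma p was 0.91. Hadha, the alpha subunit of the trifunctional protein of long-chain oxidation, had signals of 3503, 6207, 3805 and 4504 in knockout samples, against 4692, 4425, 4095 and 4785 in wild-type samples. The 2 groups overlapped widely, with log2 ratios of -0.42, 0.49, -0.11 and -0.09. The mean was -0.03 ± 0.38 (SD, n = 4 arrays), with an interval from -0.53 to 0.46 and an adjusted limma p of 0.98. Hadhb, the beta subunit of the same protein, had signals of 18727, 22674, 18654 and 21022 in knockout samples, against 24030, 30436, 29389 and 25065 in wild-type samples. Its groups did not overlap, with a mean log2 ratio of -0.42 ± 0.17 (SD, n = 4 arrays) and an adjusted limma p of 0.59. The difference between the subunits was not tested.

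The pathway list gathered 100 genes by role, of which 96 were tested. Fgf21, Ucp3, Acot3 and Abcd2 were not kept because they were too dim. The 96 include the 8 genes above, which were chosen with earlier results of these arrays known. By the submitters' rule 3 of 96 were lower, the same Pdk4, Angptl4 and Plin2, and 0 were higher, beside 0.714% and 0.762% of all named genes. On all 4 arrays 14 were lower and 2 higher, beside 8.41% and 7.18% of all named genes. At an unadjusted limma p under 0.05, 14 were lower and 1 was higher, beside 4.26% and 3.86% of all named genes. The smallest adjusted limma p in the list was 0.59. For 5 of the 96 the knockout lay wholly below the wild type, and for 0 wholly above. These 5 were Pdk4, Angptl4, Cpt2, Hadhb and, by its brighter probe alone, Etfdh. Among all genes with a value on every array the shares were 2.42% below and 2.23% above. The 8 chosen genes supply all 3 that were lower by the rule and 5 of the 14 lower on all 4 arrays. They also supply 5 of the 14 lower at an unadjusted limma p under 0.05 and 3 of the 5 without overlap. These counts therefore describe the list and support nothing further. The median of the mean log2 ratios was -0.10, beside -0.01 over all named genes, and 66 of 96 means were below 0, beside 7703 of 14701 (52.4%) over all named genes. By pair the list's median was -0.07, 0.00, -0.23 and -0.12, so it was lowest in pair 4.

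**Figure D3:**
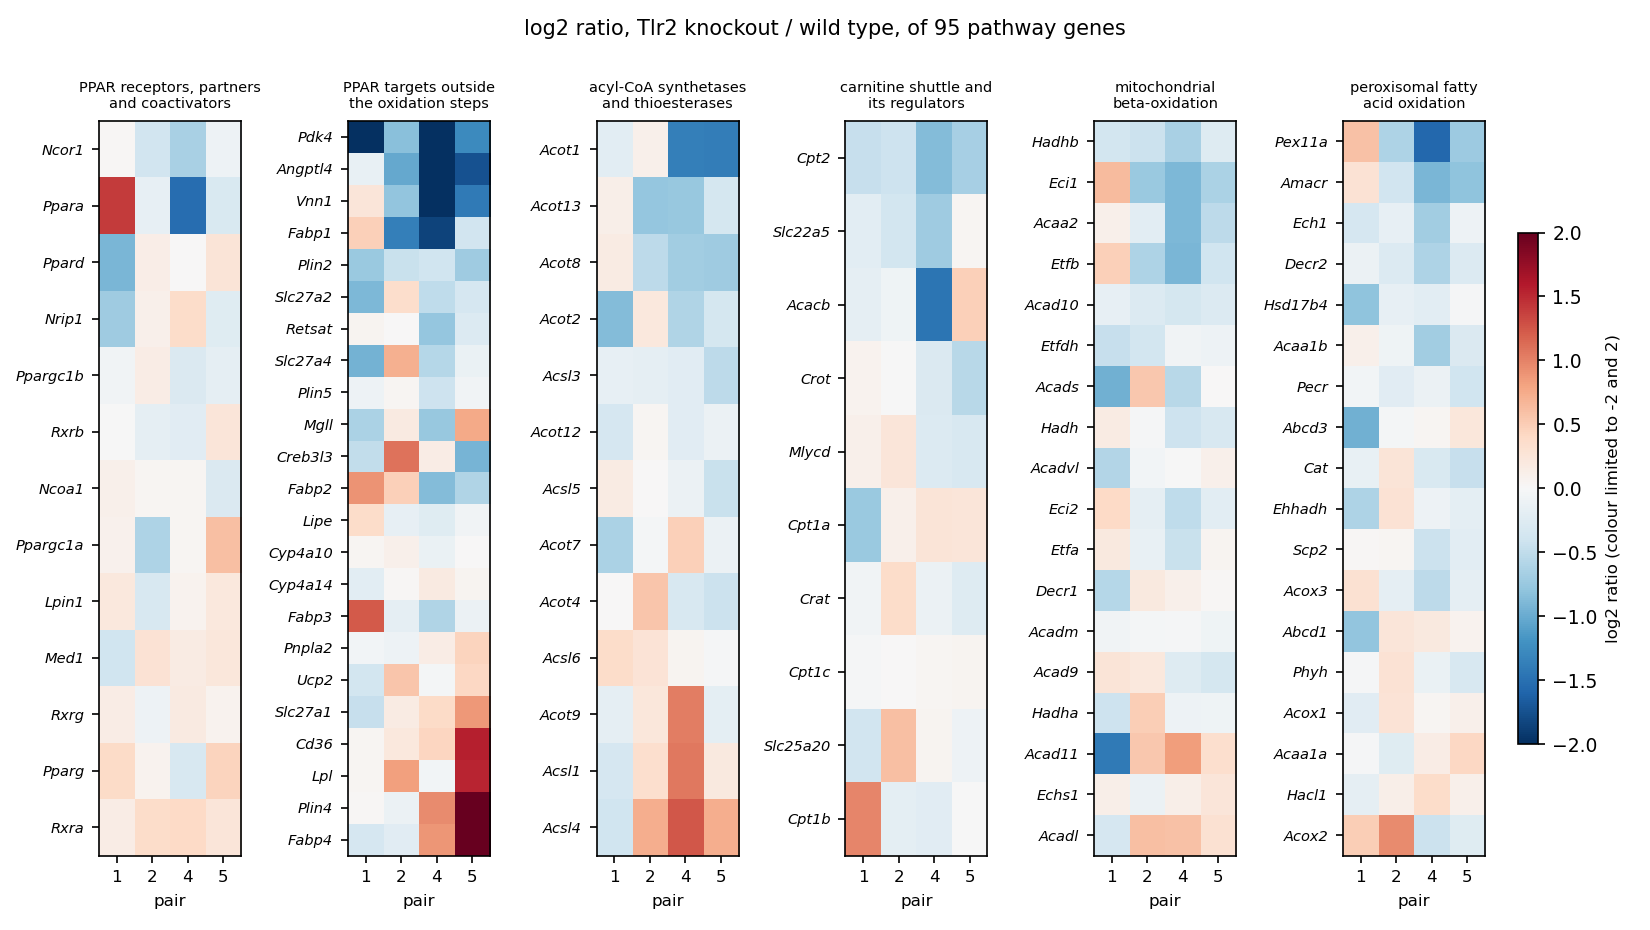
Rows are 95 of the 96 tested genes in 6 groups by role, sorted by mean, columns are pairs 1, 2, 4 and 5, and colour is the log2 ratio of Tlr2 knockout over wild type (blue lower, red higher in the knockout). Pdk4, Angptl4 and Vnn1 head the target genes, and Fabp4 and Plin4 stand at the other end with their highest ratios in pair 5.

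The receptors themselves had no common direction across the pairs. Ppara, the receptor that drives fasting metabolism in liver, had log2 ratios of 1.39, -0.17, -1.52 and -0.31, with a mean of -0.15 ± 1.20 (SD, n = 4 arrays). Its value in pair 1 opposed that in pair 4. Ppard, which is widely expressed, had -0.92, 0.14, 0.01 and 0.25, with a mean of -0.13 ± 0.53 (SD, n = 4 arrays). Pparg, the receptor of adipocytes and of differentiated colonocytes, had 0.38, 0.07, -0.32 and 0.44, with a mean of 0.14 ± 0.35 (SD, n = 4 arrays). None of the 3 receptors had the same sign in all pairs. Rxra, their partner, was higher on all 4 arrays by its brighter probe, with a mean of 0.29 ± 0.12 (SD, n = 4 arrays) and an adjusted limma p of 0.59. Its second probe averaged -0.02 ± 0.39 (SD, n = 4 arrays), and the mean of both was 0.13. By the brighter probe Rxra was the single pathway gene with an unadjusted limma p under 0.05 in the higher direction. That p was 0.357 for the mean of both probes, 0.156 with the scanner's processed signals and 0.594 with median centring. Of the 13 receptors, partners and coactivators 0 were lower by the submitters' rule.

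Of 24 tested targets outside the oxidation steps, 4 were lower on all 4 arrays, among them Pdk4, Angptl4 and Plin2, and 1 was higher. Of all named genes 8.41% were lower and 7.18% higher on all 4 arrays. The means of 14 of the 24 were below 0 (58.3%), beside 52.4% of all named genes. Vnn1, a pantetheinase of the gut epithelium, had signals of 2405, 1154, 443 and 971 in knockout samples, against 2025, 1987, 2857 and 2585 in wild-type samples. Its ratio was 0.25 in pair 1 and -0.78, -2.69 and -1.41 in pairs 2, 4 and 5. Of all other genes tested, Vnn1 had the ratios nearest to those of Angptl4, at a Euclidean distance of 0.637 over the 4 log2 ratios, followed by the chemokine Ccl5 at 1.08 and Nop10 at 1.21. Nearest to Pdk4 were Gzma, a granzyme of cytotoxic lymphocytes, at 1.65, Cyp3a44 at 1.88 and Lmnb1 at 1.98. With the scanner's processed signals the mean log2 ratio was -3.32 for Gzma, against -1.46 here, and -2.59 for Cyp3a44, against -1.10 here, and the distances were not computed on that scale.

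Some target genes were higher on average in the knockout. Cd36, a fatty acid transporter, had signals of 95.7, 99.1, 124 and 499 in knockout samples, against 93.0, 85.8, 92.1 and 170 in wild-type samples. Its log2 ratio was 0.04, 0.21, 0.43 and 1.55. In pairs 1, 2 and 4 the signals of both genotypes were about as low as those of Tlr2 in the knockout. Ratios so close to the offset of 50 say little about direction. The authors' deposited table of increased transcripts gives Cd36 a mean ratio of 3.68. The 4 ratios of Cd36 in the authors' deposited table are 1, 1.05, 1.88 and 10.8, so that mean rests on 1 array. With the scanner's processed signals Cd36 averaged a log2 ratio of 1.40, against 0.56 here, and met the submitters' rule as higher. Fabp4, Plin4 and Lpl, named here after their values were seen, averaged 0.97, 0.93 and 0.58, and each had its highest ratio in pair 5. Fabp4 and Plin4 are also on the list of adipocyte markers, with Lipe. That list had a median log2 ratio of -0.25, -0.04, 0.68 and 1.97 in pairs 1, 2, 4 and 5, and 9 of its 11 measured genes were well above background in both genotypes on all arrays. Its summed signal was between 22875 and 73717 in knockout samples and between 18225 and 38240 in wild-type samples. The part of adipocytes in these ratios was not tested.

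Among 13 synthetases and thioesterases, Acsl3, which activates long-chain fatty acids, was lower on all 4 arrays with a mean of -0.27 ± 0.17 (SD, n = 4 arrays). Among 10 genes of the carnitine shuttle, Cpt2 alone was lower on all 4 arrays, and the group's median was -0.05. Beside these counts and those below, 8.41% of all named genes were lower on all 4 arrays. The mitochondrial beta-oxidation genes had a median of -0.13 with 15 of 18 means below 0, beside the 52.4% of all named genes. Of these, 4 were lower on all 4 arrays, namely Hadhb, Acad10, Etfdh and Acadm. Acad10, an acyl-CoA dehydrogenase, averaged -0.27 ± 0.08, and Etfdh, which passes the electrons of these dehydrogenases to ubiquinone, averaged -0.25 ± 0.19 (SD, n = 4 arrays each). A second Etfdh probe did not share this direction, with -0.98, 0.32, 0.61 and 0.26 in pairs 1, 2, 4 and 5, and the mean of both probes was -0.098. The peroxisomal genes had a median of -0.16 with 14 of 18 means below 0, beside the same 52.4%. Of these, 4 were lower on all 4 arrays, among them Ech1 at -0.33, Decr2 at -0.32 and Hsd17b4 at -0.30, which handle unsaturated and very-long-chain acyl-CoA. The lowest adjusted limma p in each of these groups was 0.59.

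Leaving out pair 1 changed which pathway genes met the submitters' rule. Without it 495 of all named genes were lower (3.37%) and 388 higher (2.64%), so the rule was met more often across the whole table. In the pathway list 9 of 96 were then lower. Angptl4 and Pdk4 remained, Plin2 did not, and Vnn1, Fabp1, Pex11a, Eci1, Amacr, Acot8 and Acot13 joined them. These 7 had ratios above 0 in pair 1 and below 0 in pairs 2, 4 and 5. The rule itself requires this split of any gene that joins when pair 1 is left out, so the split is no result. The 7 were singled out after their values were seen. Pex11a, which governs peroxisome division, had 0.59 in pair 1 and a mean of -0.97 ± 0.52 in the others (SD, n = 3 arrays). Eci1, an isomerase of unsaturated acyl-CoA, had 0.64 in pair 1 and a mean of -0.76 ± 0.13 in the others (SD, n = 3 arrays). Acsl4 was higher without pair 1, at a mean of 0.90.

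**Figure D4:**
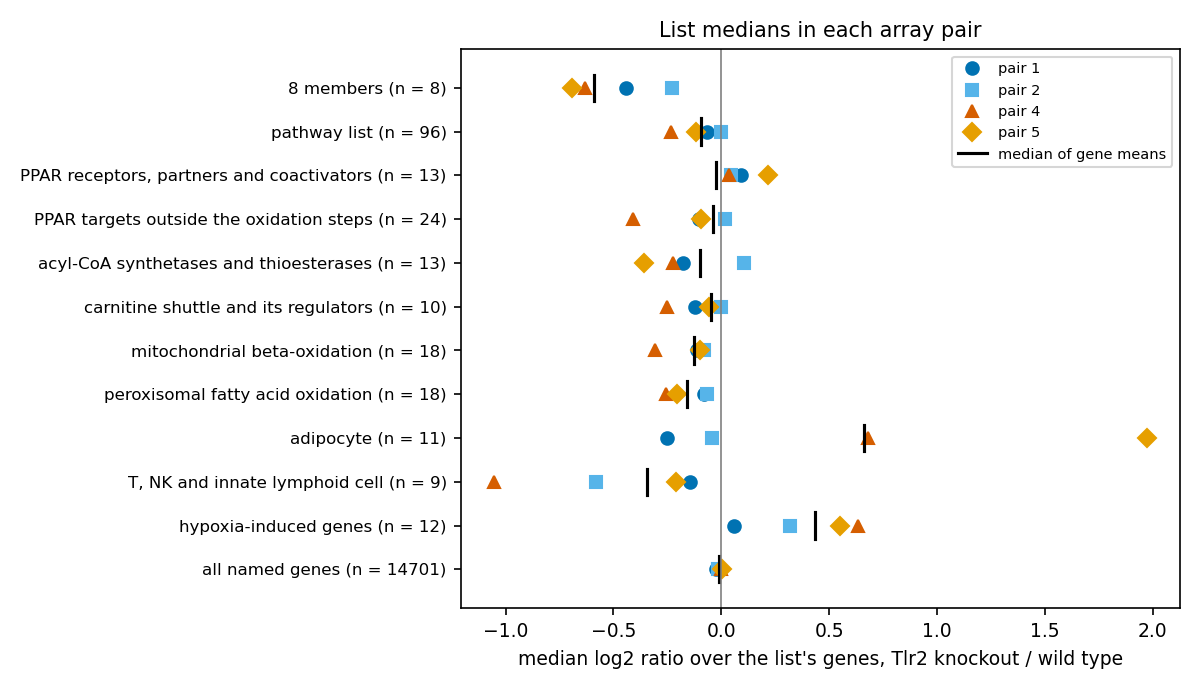
Points are the median log2 ratio of Tlr2 knockout over wild type over each list's genes in pairs 1, 2, 4 and 5, and the black bar is the median of the genes' means. The median of the 8 genes lies below 0 in every pair and that of the pathway list lies nearer 0, while that of the adipocyte list reaches 1.97 in pair 5.

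Pdk4 and Angptl4 are also known targets of glucocorticoids, and Angptl4 and Plin2 are known to respond to low oxygen, so lists for both were read beside them. Of 10 tested glucocorticoid-induced genes, 1 was lower (Hsd11b2) and 1 higher on all 4 arrays, beside 8.41% and 7.18% of all named genes. The median was 0.01, with means from -1.42 to 1.17. By pair it was -0.26, 0.27, 0.02 and 0.28. The list's summed signal lay between 67266 and 98300 in knockout samples and between 76194 and 180705 in wild-type samples. It was lower in the knockout within each pair. The gene higher on all 4 arrays was Per1, which is also a clock gene, with signals of 2708, 2122, 3044 and 2235 in knockout samples, against 1152, 763, 1558 and 1099 in wild-type samples. Hypoxia-induced genes had a median of 0.44 over 12. By pair it was 0.06, 0.32, 0.63 and 0.55, with 6, 2, 4 and 2 of the 12 genes below 0. On all 4 arrays 0 were lower and 2 higher, Pdk1 and Vegfa, beside 8.41% and 7.18% of all named genes. The brightest Vegfa probe averaged 0.46 ± 0.35 (SD, n = 4 arrays), while another of its probes averaged 0.02.

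Other lists also differed between pairs. Of 9 T, NK and innate lymphoid cell markers, 3 were lower by the submitters' rule, beside 0.714% of all named genes. These were Gzma, Ccl5 and Gzmb, and all 9 were measured. The summed signal of the 9 lay between 1529 and 2630 in knockout samples and between 2786 and 5162 in wild-type samples, without overlap. A sum is carried by its brightest probes. The list's medians in pairs 1, 2, 4 and 5 were -0.15, -0.58, -1.05 and -0.21, with 5, 8, 8 and 7 of the 9 genes below 0. The goblet cell list had pair medians of 1.41, 0.47, -0.73 and -0.50, and the absorptive colonocyte list had 0.47, 0.47, -0.41 and -0.37, with 5 of 7 and 9 of 13 genes saturated on at least 1 array. Both lists were thus higher in pairs 1 and 2 and lower in pairs 4 and 5, which is also the split by dye orientation. Pairs 4 and 5 were the lower ones for Acot1, Angptl4 and Cpt2, while Pdk4, Plin2, Acadm and Hadha did not split this way and Cpt1a was higher in pairs 4 and 5. The small intestinal enterocyte list had pair medians of -0.25, 0.10, -0.36 and -0.54, with 8 of 10 means below 0, beside 52.4% of all named genes. In it 2 genes were lower on all 4 arrays and 1 was lower by the submitters' rule, Apoa1, beside 8.41% and 0.714%. The list's summed signal lay between 56239 and 89699 in knockout samples and between 54340 and 97955 in wild-type samples. The medians in pairs 1, 2, 4 and 5 were 0.32, -0.86, -0.23 and -0.10 for B and plasma cell markers, 0.13, -0.41, -0.21 and -0.09 for macrophage and dendritic cell markers, and 0.63, -0.69, -0.75 and 0.08 for fibroblast markers. These 3 lists were above 0 in pair 1 and below 0 in pairs 2 and 4. Posterior Hox genes, of paralog groups 10 to 13, had pair medians of -1.48, 0.50, 1.21 and 0.50 over 8 genes, so pair 1 again opposed the others. The part of cell make-up and of position along the colon in the PPAR target values was not tested.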

How the data were processed

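RNA of 4 Tlr2 knockout and 4 wild-type samples was compared on two-colour Agilent 4x44k arrays, with pairs and dyes as the labels give them. The deposited scanner files give, for each spot and dye, a median pixel intensity, its local background and a processed intensity. They were written by Agilent Feature Extraction, whose version reads 10.5.1.1 in the file headers and 8.5.1.1 in the submitters' processing notes. A log10 ratio of the dyes, also deposited by the authors, served only as a check of the processed signals. The authors' deposited tables of decreased (277) and increased (328) transcripts hold linear ratios per array, whose columns could not be tied to single pairs, so their mean ratio is given. No label or header says how they were normalised.

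Background was corrected by normexp (offset 50) on the median intensities, and loess was run within each array, with limma 3.58.1 under R 4.3.3. Control spots were given no weight and outlier spots were dropped. A probe entered if it was well above background on 2 or more arrays for either genotype, and the brightest such probe was used per gene. Accessions were turned into symbols with a RefSeq table of GRCm38.p6. Signals per channel were taken after loess and Aquantile scaling and are not compared between probes. The fit (lmFit, eBayes) had a dye term and a genotype sign per array.

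The members and lists were chosen with earlier results of these data known. Genes named are Tlr2, the 8 members, the PPARs, paralogs of Acot1 and Pdk4, the 3 nearest genes to Pdk4 and Angptl4, and of each list those past the submitters' rule and up to 3 more with the largest mean among those of one direction on all 4 arrays. Of the marker lists, fewer are named. A gene that this rule names is not reported here, although it stays in the counts. Others were named after their values were seen. The number of arrays limits the precision. The procedure was tested on simulated data. Alternatives were the processed signals, no background correction, median centring, other filters, saturated spots left out, the mean of probes, no dye term, each dye orientation alone and each array left out.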

Additional observations from a re-analysis of the deposited data

Results flagged for a closer look

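With 4 arrays a single value was singled out when its distance to the nearest other, as a share of the whole range, passed Dixon's critical value at 95%. By chance alone that happens in about 5% of groups. The check was run on many genes, so a few such values would be reached by chance. The log2 ratio of Cpt1a in pair 1 was -0.74, while the other pairs lay between 0.11 and 0.25. Hsd11b2, which inactivates glucocorticoids and is itself on the glucocorticoid-induced list, had -2.07 in pair 1, while the other pairs lay between -0.19 and -0.11.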

How the results depend on the processing

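Pdk4, Angptl4, Acot1, Cpt2, Plin2 and Acadm kept a mean below 0 under every alternative run, at between -2.25 and -1.52 for Pdk4 and between -1.91 and -0.97 for Angptl4 when 1 array was left out. Cpt1a was -0.13 to 0.20 with 1 array left out, 0.048 as the mean of its probes, 0.25 in the Cy5 pairs and 0.13 by its second probe. Hadha was -0.20 to 0.10 with 1 array left out and 0.033 in the Cy3 pairs. Limma called 0 genes, but 1 without background correction, 2 with processed signals, 1 with median centring, 1 with the strict background filter and 3 without the dye term. The rule gave 105 lower and 112 higher genes, but 251 and 303 with processed signals and 293 and 45 with median centring. With 1 array left out it gave 84 to 495 lower and 93 to 388 higher genes. In the pathway list it gave 10 lower genes with median centring and 2 higher ones with processed signals. With 1 array left out it gave 2 to 9 lower and 0 to 1 higher, and 15 to 33 pathway genes (14 with all 4) were lower on all remaining arrays, a count that grows because fewer arrays must share a sign. The pathway median was -0.21 both with median centring and in the Cy5 pairs, beside medians over all named genes of -0.05 and 0.01. Signs also turned for Pdk2 (-0.16 to 0.33 with 1 array left out, -0.047 with median centring, -0.13 in the Cy3 pairs), Ppard (-0.26 to 0.13 with 1 array left out, 0.13 in the Cy5 pairs), Ppara (-0.66 to 0.31 with 1 array left out, 0.61 in the Cy3 pairs) and Acot4 (-0.25 to 0.081 with 1 array left out, 0.28 in the Cy3 pairs). The causes of these changes were not tested. The fit is itself paired, since it uses the knockout over wild-type ratio within each array. Pairs 1 and 4 also have methylation arrays, not analysed here. No paired analysis was possible because the RNA and DNA ratios that share these numbers are different measures and were not compared.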
